A study of Mus musculus with 6 samples.

Results

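Cytochrome P450 genes were followed in subcutaneous white fat of mice, on 6 Affymetrix arrays. The members were all genes whose symbol is Cyp followed by a number and a letter, Cyp51 left out, and 62 of the 12394 genes measured met that rule. They were covered by 75 probe sets, and a gene with several was read from the one with the highest mean. The control mice (3 arrays) carried floxed alleles of Yy1, YY1flox/flox, and the other mice (YY1bKO, 3 arrays) carried the same alleles together with Ucp1Cre, a Cre recombinase under the control of Ucp1. All mice were 8 weeks old, of mixed C57BL6 and 129 background, and had been on a high fat diet for 2 weeks, so that the floxed alleles, the diet and the age are shared by both groups. The labels call the deletion brown fat specific, and Ucp1 is expressed mainly in brown and beige adipocytes. The labels name no group with Ucp1Cre and without floxed alleles, so effects of Cre cannot be told apart from those of losing YY1. They also do not say that the replicates were separate animals, and p-values then measure only the spread between these samples. In a whole depot, fewer cells of a type and less RNA per cell cannot be told apart.

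Cytochrome P450 enzymes are heme proteins that insert an oxygen atom into fat-soluble substrates. Most sit in the endoplasmic reticulum and draw electrons from P450 reductase and cytochrome b5, while a few, such as those that cut or hydroxylate the sterol side chain, sit in mitochondria and draw them from ferredoxin. The families differ in substrate, from foreign compounds and drugs to steroids, bile acid precursors, vitamin D, retinoic acid, fatty acids and arachidonic acid. The liver holds most of the drug-metabolising forms, and fat is known for a smaller set that acts on fatty acids, sterols and oestrogens.

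Values are given as log2(intensity + 1), and the lower quartile of all probe sets lay between 4.95 and 5.03 on each array (29.9 to 31.7 as intensity). The labelled tissue was borne out by Adipoq and Fabp4, which white and brown adipocytes both express, with control means of 14.08 and 14.54. Yy1 itself measured 10.33, 10.52 and 10.62 in the controls, next to 10.13, 10.41 and 10.20 in YY1bKO, groups that overlapped. Ucp1, the uncoupling protein of thermogenic adipocytes, went from 5.61 ± 0.15 to 10.86 ± 0.18 (SD, n = 3 each). Control replicate 2 stood apart in skin markers, and 8 of the 9 measured had their highest value there. Their summed intensity was 22060 on that array, 346.5 and 301.1 on the other controls, and 352.4 to 381.2 in YY1bKO. YY1bKO replicate 1 stood apart in skeletal muscle markers, whose summed intensity was 3718.7 there and at most 1749.3 elsewhere. B cell markers varied within both groups, from a sum of 251.8 to 6894.9 in controls and from 200.9 to 3281.5 in YY1bKO.

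Most P450 genes were dim in this fat. The mean over all 6 arrays was above the lower quartile for 23 of the 62 members (37.1%), against 9908 of all 12394 genes (79.9%), and above the array median for 9. On single arrays, 20 members exceeded the lower quartile in all 6, 8 in some and 34 in none. The values nearest the threshold were 5.09 for Cyp46a1, the cholesterol hydroxylase known from neurons, just above it, and 4.85 for Cyp7b1, an oxysterol hydroxylase, just below. The 5 members of family 3, the main drug-metabolising enzymes of liver, all lay below, with means from 2.95 (Cyp3a16) to 3.78 (Cyp3a13). Of the 15 members of the 2c and 2j subfamilies, some of which make epoxides of arachidonic acid, 4 lay above: Cyp2j6, Cyp2j9, Cyp2c70 and Cyp2c38. Family 4, which hydroxylates fatty acids and eicosanoids at the chain end, had 5 of its 10 above, and the other members of family 2 had 8 of 16. Cyp7a1 and Cyp8b1 of bile acid synthesis, Cyp24a1 and Cyp27b1 of vitamin D metabolism, Cyp26a1, which clears retinoic acid, and the PPAR-responsive Cyp4a14 of liver were all below the lower quartile. A value below it can still hold signal, and brightness of different probe sets does not order the abundance of their transcripts.

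No P450 gene passed an adjusted p of 0.05 by limma (lowest adjusted p = 0.147), a threshold that 0.0323% of all genes met. At an unadjusted p under 0.05, 6 members were higher in YY1bKO and 0 were lower. The 6 are 9.68% of the members, and 8.45% of all genes were higher by the same rule, so over all 62 members the share was near the background. Lower by the same rule were 1.99% of all genes. All 6 belonged to the 23 members with a mean above the lower quartile. Among all genes with such a mean, 10.2% were higher and 2.12% lower at that p. The share of 6 in 23 was thus larger than that of all genes above the lower quartile, and it was not tested. Those genes were not matched in brightness to the 23 members, of which 9 had a mean above the array median. The groups did not overlap, with YY1bKO above, in 7 members (11.3%, against 11.5% of all genes), and with YY1bKO below in 5 (8.06%, against 5.0%). The median log2 difference was -0.01 over the 62 members and 0.00 over all genes.

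**Figure D1:**
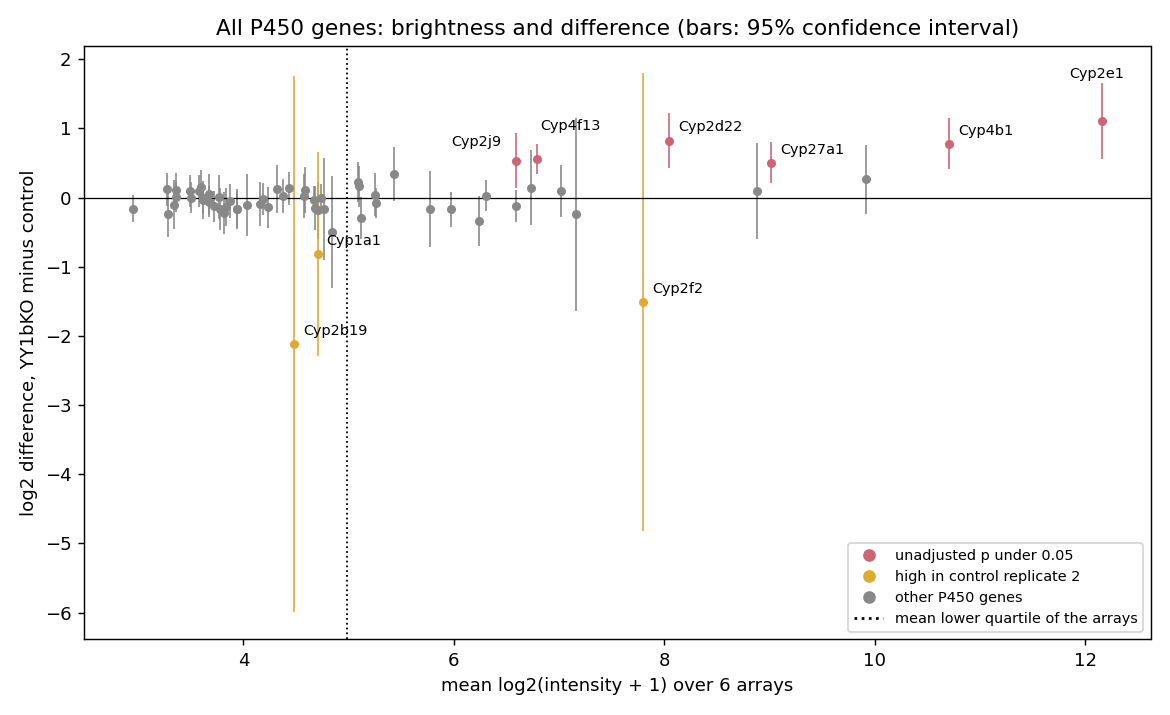
Each point is 1 of the 62 P450 genes, with its mean log2(intensity + 1) over 6 arrays on the x axis and its log2 difference (YY1bKO minus control) with the 95% confidence interval from limma on the y axis; the dotted line is the mean lower quartile of the arrays (4.99). The 6 genes at an unadjusted p under 0.05 (red) all lie to the right of the line and above 0, and the 3 widest intervals of the lower genes (yellow) belong to Cyp2b19, Cyp2f2 and Cyp1a1.

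Of the 62 members, 28 had a higher mean in YY1bKO and 34 a lower one. The 6 that were higher at an unadjusted p under 0.05 by limma were Cyp2e1, Cyp4b1, Cyp2d22, Cyp27a1, Cyp4f13 and Cyp2j9. Their differences ran from 1.42-fold (Cyp27a1) to 2.15-fold (Cyp2e1). Between them they act on small organic molecules, fatty acids, drugs, the sterol side chain, leukotrienes and arachidonic acid, so they come from 4 of the 9 role groups measured. Each had 3 of 3 YY1bKO arrays above all controls, and an exact 2-sided permutation test gave each p = 0.1, the smallest that 3 against 3 arrays allow.

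Cyp2e1, which oxidises ethanol, acetone and fatty acids near the chain end, had the largest positive difference of the family. Its intensities were 2743.3, 3348.7 and 3306.2 in the controls, against 5245.4, 6171.2 and 9328.8 in YY1bKO. The lowest YY1bKO array lay well above the highest control, and YY1bKO replicate 3 was the highest of all. On the log2 scale the difference was 1.10 ± 0.23 (SE, n = 3 per group; 95% interval 0.55 to 1.66; limma unadjusted p = 0.00267, adjusted p = 0.211). Cyp4b1, a hydroxylase of fatty acids best known from lung, measured 1336.5, 1210.0 and 1292.0 in the controls, next to 1778.7, 2340.9 and 2531.4 in YY1bKO. The controls were tightly grouped and the YY1bKO arrays more spread, with replicate 1 nearest the controls. The log2 difference was 0.78 ± 0.15 (SE; interval 0.41 to 1.14; limma adjusted p = 0.191).

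Cyp2d22 is a member of the Cyp2d subfamily, which metabolises many drugs. Its intensities were 223.5, 195.7 and 177.4 in the controls against 322.0, 310.5 and 433.5 in YY1bKO. The groups were separate, again with YY1bKO replicate 3 highest, and the log2 difference was 0.82 ± 0.16 (SE; limma adjusted p = 0.201). Its dimmer probe set gave a difference of 1.11 in the same direction. The other 5 members measured from the same run of Cyp2d genes in the RefSeq gene order (Cyp2d9, Cyp2d10, Cyp2d12, Cyp2d26 and Cyp2d34) were all below the lower quartile.

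Cyp27a1, the mitochondrial sterol hydroxylase that opens the acidic route of bile acid synthesis, measured 376.9, 493.1 and 439.2 in the controls, against 608.5, 631.4 and 609.7 in YY1bKO. The 3 YY1bKO arrays were close together and above every control. The log2 difference was 0.51 ± 0.12 (SE; limma adjusted p = 0.259). Cyp4f13, of the subfamily that hydroxylates leukotrienes and long fatty acids, had the smallest p of the family. Its intensities were 86.1, 89.2 and 94.5 against 132.7, 127.4 and 139.2, and the spread within each group was small beside the gap. Its log2 difference was 0.56 ± 0.09 (SE; interval 0.35 to 0.78; limma unadjusted p = 6.6e-04, adjusted p = 0.147). Cyp4f14, its neighbour in the gene order, was below the lower quartile.

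Cyp2j9, which acts on arachidonic acid, had intensities of 98.7, 70.9 and 70.6 in the controls, next to 127.5, 104.9 and 113.1 in YY1bKO. Control replicate 1 lay close under the lowest YY1bKO array, and the log2 difference was 0.53 ± 0.16 (SE; limma unadjusted p = 0.0167, adjusted p = 0.348). Without control replicate 3 the difference was 0.45 (limma unadjusted p = 0.0534), and without YY1bKO replicate 1 it was 0.46 (limma unadjusted p = 0.0582). Without control replicate 2 and YY1bKO replicate 1 together it was 0.38 (limma unadjusted p = 0.128). The other 5 of the 6 genes stayed under 0.05 in all 14 alternatives run. Cyp2j6, from the same run of genes, overlapped between groups, with means of 6.66 and 6.80.

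**Figure D2:**
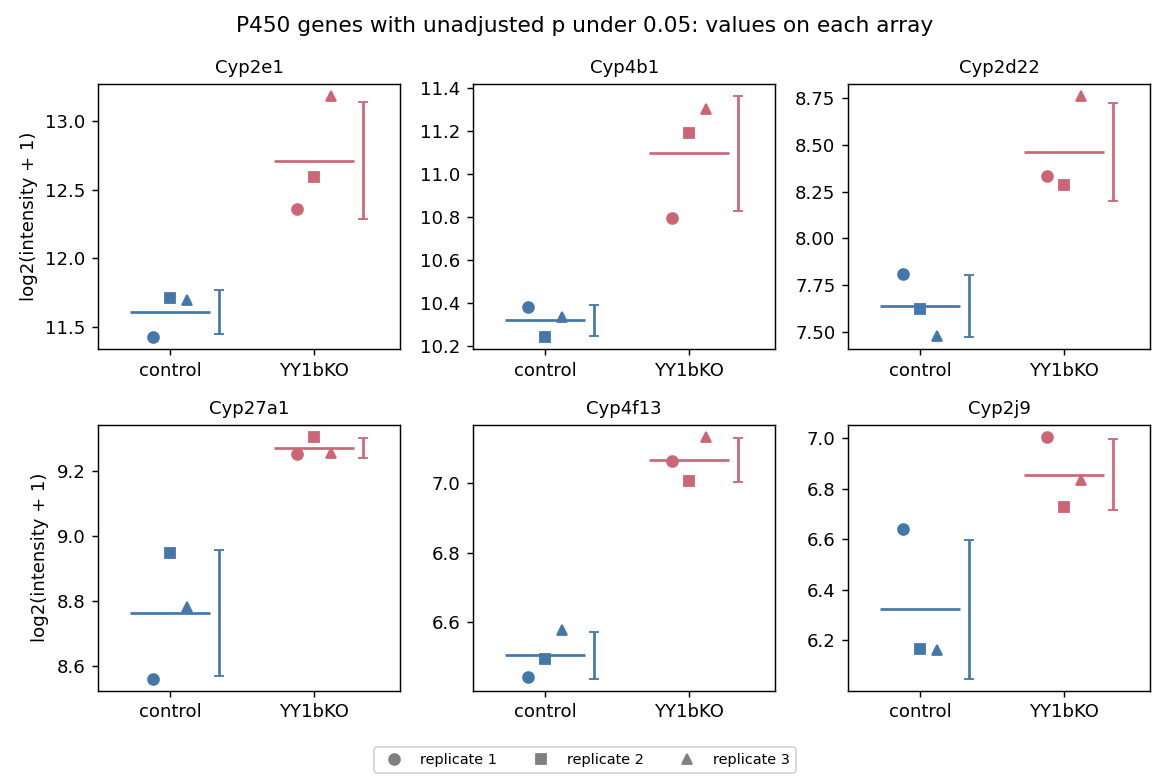
Each panel shows log2(intensity + 1) of 1 P450 gene on the 6 arrays, with symbols for replicates, horizontal lines for group means and bars for the SD (n = 3 each); the y axes differ and do not start at 0. In all 6 panels every YY1bKO array lies above every control array, by 0.09 for Cyp2j9 and 0.65 for Cyp2e1.

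Values of other cell types stood beside these 6. The summed intensity of 8 brown and beige adipocyte markers was 1524.5 to 3043.3 in the controls, against 9120.5 to 10130.2 in YY1bKO. All 8 had a higher mean in YY1bKO, but Cidea and Dio2 overlapped between groups. For Cidea, control replicate 2 (2067.8) lay above every YY1bKO array (1683.1 to 1931.4). Dio2 had a log2 difference of 0.07. The summed intensity of 8 genes listed as white adipocyte markers was 60465.9 to 76524.9 in the controls, next to 74237.9 to 80627.7 in YY1bKO. Those ranges overlapped. The list includes Adipoq and Fabp4, which brown adipocytes also express, with control mean intensities of 17429.1 and 23885.9. The sum therefore does not mark white adipocytes alone. Of these 8, 7 had a higher mean in YY1bKO and 4 (Nnat, Agt, Pnpla2 and Lipe) an unadjusted p under 0.05 by limma. Lep was lower (log2 difference -0.31, limma adjusted p = 0.747). Over all genes, 8.45% were higher at that p, and the median log2 difference was 0.00. The mean log2 value of the 8 was 11.68 to 12.03 in the controls and 12.20 to 12.38 in YY1bKO, without overlap. All 8 skeletal muscle markers had a higher mean in YY1bKO, with sums from 406.5 to 616.9 in the controls and from 709.2 to 3718.7 in YY1bKO. Only Acta1 had an unadjusted p under 0.05 by limma, with intensities of 1569.2, 524.3 and 1572.0 in YY1bKO. The mean log2 value of the 8 overlapped, at 4.95 to 5.45 in the controls and 8.13, 5.01 and 5.16 in YY1bKO. All 7 endothelial markers also had a higher mean in YY1bKO, with sums from 2413.0 to 4190.8 and from 3575.7 to 4334.1. Only Robo4 had an unadjusted p under 0.05 by limma. Control replicate 2 had the lowest endothelial sum. With all arrays the log2 differences were 0.23 (Pecam1) to 0.62 (Robo4), and without that array 0.08 (Cdh5) to 0.53 (Robo4). Of 10 stromal markers 9 had a higher mean in YY1bKO, with sums from 33049.6 to 55298.7 and from 43636.6 to 49353.4. Pi16 and Pdgfra had an unadjusted p under 0.05 by limma. The lowest stromal sum was again that of control replicate 2. Without it the log2 differences were 0.52 (Pi16) and 0.30 (Pdgfra), while Col1a1 (-0.11), Col3a1 (-0.01) and Pdgfrb (-0.23) turned negative. The liver marker Alb was higher in YY1bKO (log2 difference 0.53, limma adjusted p = 0.453), while Ttr (-0.04) and Apoa1 (0.01) overlapped and Fga and Tat were below the lower quartile. The part of these in the P450 differences was not tested. Left out together, the arrays that stood apart (control replicate 2 and YY1bKO replicate 1) leave 5 of the 6 genes at an unadjusted p under 0.05.

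The stretches just before the start sites of 4 of these genes are shown, chosen because these enzymes act on fatty acids, arachidonic acid or small molecules and include stretches with and without motif matches. Each is the 250 bases before the RefSeq start on GRCm38.p6, written 5′ to 3′ on the gene's strand: Cyp2e1 at chr7:140763569-140763818 (+), Cyp4b1 at chr4:115647722-115647971 (-), Cyp4f13 at chr17:32947362-32947611 (-) and Cyp2j9 at chr4:96591486-96591735 (-). Capitals mark matches to any of 3 motifs searched on both strands: TATAAA (the TATA box), GCGTG (the core bound by the aryl hydrocarbon receptor with its partner) and GCCATNTT (a YY1 motif).
Cyp2e1: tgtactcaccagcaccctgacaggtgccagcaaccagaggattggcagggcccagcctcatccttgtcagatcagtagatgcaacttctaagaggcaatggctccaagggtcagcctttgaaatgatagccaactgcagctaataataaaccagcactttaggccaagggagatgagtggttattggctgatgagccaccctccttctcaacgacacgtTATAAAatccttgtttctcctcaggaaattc
Cyp4b1: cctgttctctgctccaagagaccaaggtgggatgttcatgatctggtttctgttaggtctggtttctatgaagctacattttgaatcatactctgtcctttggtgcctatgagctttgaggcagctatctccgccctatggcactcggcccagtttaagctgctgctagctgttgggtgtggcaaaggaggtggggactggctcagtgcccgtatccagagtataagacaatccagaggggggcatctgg
Cyp4f13: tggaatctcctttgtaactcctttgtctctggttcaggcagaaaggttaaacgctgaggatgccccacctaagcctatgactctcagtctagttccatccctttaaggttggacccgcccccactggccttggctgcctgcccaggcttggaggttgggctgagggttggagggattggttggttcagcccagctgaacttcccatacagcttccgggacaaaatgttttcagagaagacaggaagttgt
Cyp2j9: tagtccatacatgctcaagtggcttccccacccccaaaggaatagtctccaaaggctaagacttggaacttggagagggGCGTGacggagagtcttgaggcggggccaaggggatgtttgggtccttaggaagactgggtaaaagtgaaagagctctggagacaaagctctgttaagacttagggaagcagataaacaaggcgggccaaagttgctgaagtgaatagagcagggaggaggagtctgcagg
Cyp2e1 held TATAAA, with its first letter 31 bases before the start, Cyp2j9 held GCGTG, 171 bases before it, and Cyp4b1 and Cyp4f13 held none of the 3. Of the 62 members, 45 had an entry, with 52 stretches in all. The TATA box was in 17 of these 52 (32.7%) and in 12.4% of all 32851 stretches, GCGTG in 11 (21.2%, against 28.2%) and GCCATNTT in 2 (3.85%, against 3.91%). The stretches with GCCATNTT belonged to Cyp11a1 and Cyp2a12. These are matches of letters, not shown sites.

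Several members were bright in both groups without a difference past the threshold. Cyp1b1, which hydroxylates oestrogens and aromatic hydrocarbons and is abundant in stromal cells of many tissues, measured 8.61, 8.51 and 9.39 in the controls, against 8.54, 9.17 and 9.08 in YY1bKO. The groups overlapped widely, and the interval of the log2 difference, -0.60 to 0.78, leaves changes in either direction possible. Cyp4v3, a fatty acid hydroxylase, had intensities of 1148.2, 662.1 and 901.6 in the controls, next to 1019.6, 1031.6 and 1128.1 in YY1bKO. Control replicate 1 was the highest array and control replicate 2 the lowest (log2 difference 0.26, limma adjusted p = 0.718), and the difference was 0.45 without control replicate 1 (limma unadjusted p = 0.0338) and 0.057 without control replicate 2. Cyp4f16, of the same leukotriene-hydroxylating subfamily as Cyp4f13, had means of 6.97 ± 0.28 and 7.07 ± 0.05 (SD, n = 3 each), and the direction turned to -0.06 without control replicate 2.

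Cyp4f18, which inactivates the chemoattractant leukotriene B of white blood cells, varied more within groups than between them. Its values were 6.34, 7.38 and 8.12 in the controls, against 6.13, 7.73 and 7.25 in YY1bKO. The lowest 2 of the 6 arrays were control replicate 1 and YY1bKO replicate 1, and the highest was control replicate 3. The summed intensity of 6 B cell markers was lowest on the same 2 arrays (251.8 and 200.9) and highest on that same control (6894.9). Of 7 macrophage markers, the sum ranged from 9863.9 to 16256.6 in the controls and from 10692.5 to 13624.8 in YY1bKO. The part of these cells in the Cyp4f18 values was not tested.

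Among the sterol and steroid enzymes, Cyp27a1 was the only member at an unadjusted p under 0.05. Cyp39a1, which hydroxylates oxysterols on the way to bile acids, had means of 5.26 ± 0.23 and 5.61 ± 0.19 (SD, n = 3 each; limma adjusted p = 0.531), and its difference was 0.47 without control replicate 3 (limma unadjusted p = 0.0256) and 0.24 without control replicate 2. Cyp46a1 had means of 4.98 and 5.21 (adjusted p = 0.598). Cyp7b1 had a mean below the lower quartile and a single high array, control replicate 3 (5.83, against 4.29 to 4.79 on the other 5), without which its difference went from -0.50 to -0.13. Of the 4 steroid hormone enzymes, Cyp21a1 (6.65 and 6.53) and Cyp17a1 (5.23 and 5.27), hydroxylases of the adrenal and gonadal routes, were above the lower quartile. Cyp11a1, the side chain cleavage enzyme that opens steroid synthesis, was below it on every array, where YY1bKO exceeded control by 0.13 without overlap (limma adjusted p = 0.71). Other members above the lower quartile had control and YY1bKO means of 6.30 and 6.32 (Cyp2b10, a phenobarbital-inducible enzyme) and 5.85 and 5.69 (Cyp2c70). Those of Cyp2c38 were 5.30 and 5.22, and those of Cyp2a12 were 5.02 and 5.18. In each of these genes the groups overlapped, and none exceeded the array median on any array.

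On the lower side, 0 members had an unadjusted p under 0.05. The groups did not overlap, with YY1bKO below, for Cyp2s1, Cyp2b13, Cyp2d13, Cyp2b19 and Cyp3a16. Cyp2s1, found in many epithelia, measured 6.29, 6.66 and 6.26 in the controls, next to 6.19, 6.11 and 5.90 in YY1bKO. Control replicate 2, the array with high skin markers, was the highest, and the difference was -0.34 ± 0.15 (SE; limma adjusted p = 0.509) with all arrays and -0.21 without that one. Cyp2b13 had means of 5.27 and 4.97 (unadjusted p = 0.0503 by limma), and its difference was -0.38 without control replicate 2 (limma unadjusted p = 0.0191) and -0.20 without control replicate 1. Cyp2d13 had means of 6.06 and 5.88, with only 0.01 between the nearest arrays of the 2 groups. Cyp3a16 lay far below the lower quartile on all 6 arrays.

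The largest negative differences of the family came from 1 array. Cyp2b19, an arachidonic acid epoxygenase known from keratinocytes, had intensities of 11.5, 710.0 and 10.4 in the controls, against 10.1, 10.2 and 9.0 in YY1bKO. Cyp2f2, the naphthalene-metabolising enzyme of airway club cells, measured 103.7, 3542.7 and 142.6 against 143.1, 208.8 and 75.4. Cyp1a1, the aromatic hydrocarbon hydroxylase induced through the aryl hydrocarbon receptor, measured 19.0, 94.8 and 20.7 against 20.8, 19.7 and 15.9. In each of the 3, chosen for description after their values were seen, control replicate 2 was far above the other 5 arrays. Those 5 lay close together for Cyp2b19 and Cyp1a1, and from 75.4 to 208.8 for Cyp2f2. The log2 differences with all arrays were -2.12 (Cyp2b19), -1.51 (Cyp2f2) and -0.82 (Cyp1a1), with limma adjusted p of 0.715, 0.755 and 0.712. Without control replicate 2 they were -0.15, 0.11 and -0.08.

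Most skin markers and some mammary epithelial markers were highest on control replicate 2. Of the skin list, Krt14, a keratin of the basal epidermis, was at 12.45 there and at 4.68 to 5.25 elsewhere, and Krt1, of the upper epidermis, was at 4.22, below the lower quartile there as on the other arrays. Of 11 mammary epithelial markers, 5 were highest on that array. The sum of all 11 was 4684.7 there, against 253.8 to 490.1 on the other 5 arrays. The milk protein genes Csn2, Csn3, Wap and Lalba had means below the lower quartile. Krt19, a keratin of the same list, was highest on YY1bKO replicate 2 (5.68) and at 4.36 on control replicate 2. Vdr, the vitamin D receptor, was at 8.21 there and at 5.31 to 5.70 elsewhere, and Aldh3a1, an aldehyde dehydrogenase of epithelia, at 7.63 against 3.62 to 4.12. On that array Cyp4b1 was the lowest of the controls (10.24) and Cyp2e1, at 11.71, was close to control replicate 3 (11.69). The part of epithelium in Cyp2b19, Cyp2f2 and Cyp1a1 was not tested beyond leaving that array out.

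**Figure D3:**
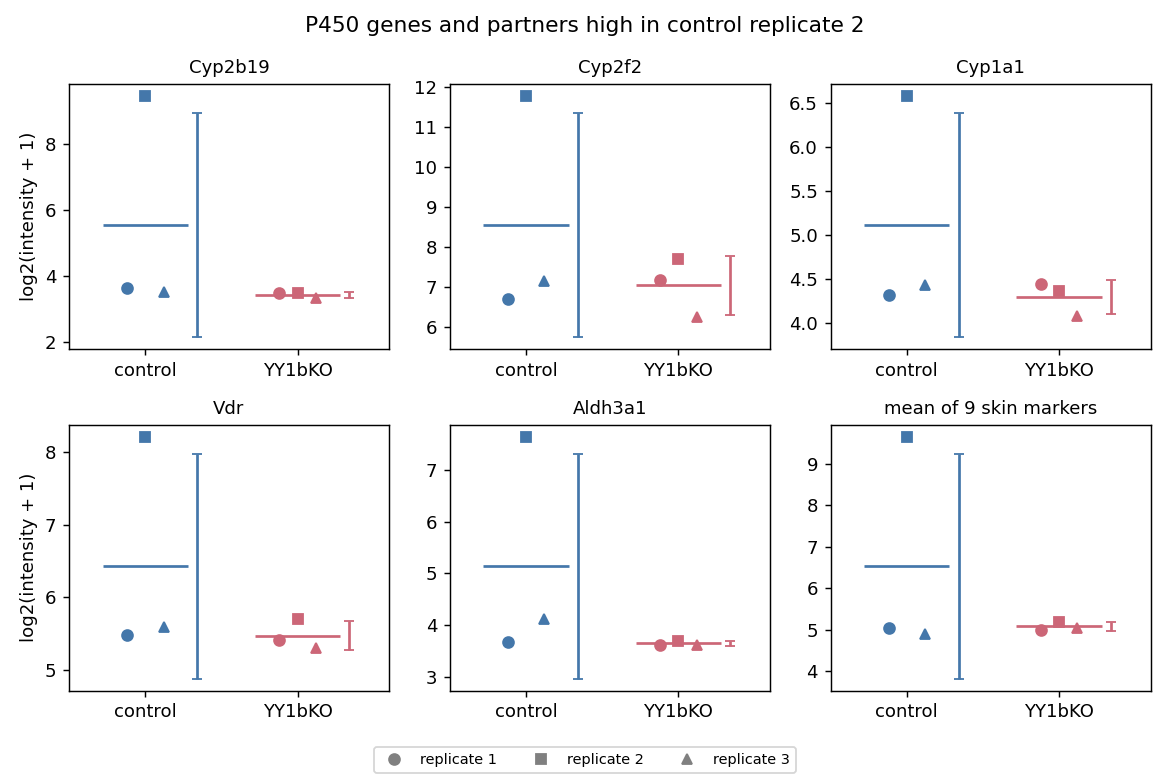
Panels show log2(intensity + 1) on each of the 6 arrays for 3 P450 genes, Vdr, Aldh3a1 and the mean of 9 skin markers, with symbols for replicates, lines for group means and bars for the SD (n = 3 each); the y axes differ. In all 6 panels control replicate 2 (blue square) is the highest array, at 9.47 for Cyp2b19 and 11.79 for Cyp2f2.

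Most dim members differed little between groups. Of the 39 below the lower quartile, 26 had a lower mean in YY1bKO and 13 a higher one, a lean that was not tested. Cyp2b19, Cyp1a1 and Cyp7b1 had the largest differences. Leaving these aside, the other 36 had log2 differences from -0.24 to 0.16. Values there are close to the background of the array, and differences are compressed.

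Genes that serve P450 enzymes were read from lists of electron donors, transcription factors, eicosanoid enzymes and genes of steroid metabolism. Of 8 measured electron donors and membrane partners, 2 were higher and 0 lower at an unadjusted p under 0.05 (over all genes, 8.45% were higher and 1.99% lower). Cyb5r1, a cytochrome b5 reductase, measured 8.61, 8.09 and 8.36 in the controls, next to 9.09, 9.02 and 9.31 in YY1bKO, without overlap (limma adjusted p = 0.211). Fdx1, the ferredoxin that feeds mitochondrial P450 enzymes such as Cyp27a1, measured 10.24, 10.51 and 10.30 against 10.62, 10.98 and 11.78. YY1bKO replicate 3 was the highest for Fdx1, and without it the difference went from 0.77 (limma unadjusted p = 0.0392) to 0.45. It was no longer under 0.05 without control replicate 1 (0.72, limma unadjusted p = 0.0971), control replicate 2 (0.85, 0.0527), control replicate 3 (0.75, 0.0912) or YY1bKO replicate 2 (0.85, 0.0626). Cyb5a, the cytochrome b5 of the endoplasmic reticulum, had means of 12.86 and 13.12 and Cyb5b, of the mitochondrial outer membrane, 11.04 and 10.67, both with overlap. Cyb5a differed by 0.38 without control replicate 1 (limma unadjusted p = 0.0158) and by 0.16 without control replicate 2. Cyb5b differed by -0.58 without control replicate 3 (limma unadjusted p = 0.0357) and by -0.14 without control replicate 1. Por, the P450 reductase, was not analysed here.

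Of 21 transcription factors that act on P450 genes, 3 were higher and 0 lower at an unadjusted p under 0.05 (over all genes, 8.45% were higher and 1.99% lower). Nr1h3, the oxysterol receptor LXR alpha, measured 8.02, 7.42 and 7.85 in the controls, against 8.38, 8.31 and 8.44 in YY1bKO (difference 0.62, limma adjusted p = 0.303). Nfe2l2, the factor of the antioxidant response, had means of 10.18 and 10.50 (adjusted p = 0.414), also without overlap, and its difference of 0.33 was 0.24 to 0.34 (limma unadjusted p 0.066 to 0.0982) without control replicate 2 or 3 or YY1bKO replicate 1 or 2. Ppara, the fatty acid receptor that drives Cyp4a genes in liver, had means of 6.97 and 7.94 (adjusted p = 0.453), and control replicate 2, at 7.80, lay within the YY1bKO values of 7.76 to 8.25. Without any one array but control replicate 2, its difference was 0.69 to 1.06 (limma unadjusted p 0.0674 to 0.114), and without control replicate 2 it was 1.38 (limma unadjusted p = 6.5e-04). The Cyp4a members Cyp4a14, Cyp4a12a and Cyp4a31 were below the lower quartile on all 6 arrays. Ahr, the aryl hydrocarbon receptor, had means of 8.57 and 8.28 (adjusted p = 0.747), and Rara, a retinoic acid receptor, 5.84 and 5.67 (adjusted p = 0.624). The xenobiotic receptors Nr1i2 and Nr1i3 (PXR and CAR) had means below the lower quartile. Of 4 other targets of the aryl hydrocarbon receptor, 0 had an unadjusted p under 0.05 by limma: Tiparp (9.69 and 9.85), Nqo1 (5.89 and 5.95) and Aldh3a1 overlapped, and Ahrr, below the lower quartile, did not (4.14 and 4.28). Nqo1 differed by 0.29 without control replicate 1 (limma unadjusted p = 0.024) and by -0.078 without control replicate 3.

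Of 9 enzymes around eicosanoids, 1 was higher and 0 lower at an unadjusted p under 0.05 (over all genes, 8.45% were higher and 1.99% lower). Ephx1, the microsomal epoxide hydrolase, measured 9.72, 9.91 and 10.02 in the controls, next to 10.27, 10.18 and 10.16 in YY1bKO (limma adjusted p = 0.391), and without any 1 of the YY1bKO arrays its difference was 0.29 to 0.34 (limma unadjusted p 0.0515 to 0.0802). Ephx2, the soluble hydrolase that opens the epoxides made by Cyp2c and Cyp2j enzymes, had means of 11.49 ± 0.54 and 12.07 ± 0.09 (SD, n = 3 each), and control replicate 2, at 12.10, lay within the YY1bKO values. Without that array its difference was 0.89 (limma unadjusted p = 4.65e-04), and without control replicate 3 it was 0.38. The dim Ptgs2 and Alox15, cyclooxygenase and lipoxygenase, had differences of 0.32 and -0.19, and that of Ptgs2 was 0.51 without YY1bKO replicate 3 (limma unadjusted p = 0.0244) and 0.16 without YY1bKO replicate 1. Of 10 genes of steroid metabolism, 2 were higher and 0 lower, against the same 8.45% and 1.99% of all genes. Hsd17b11, a lipid droplet dehydrogenase, had means of 10.91 and 11.50 without overlap (limma adjusted p = 0.295). Akr1c14, a hydroxysteroid dehydrogenase, had means of 6.35 and 7.05 with overlap (limma adjusted p = 0.461). The Akr1c14 difference of 0.70 was 0.52 to 0.79 (limma unadjusted p 0.061 to 0.139) without any one array but control replicate 1. Hsd17b1 (4.79 and 4.97) and Hsd17b10 (10.16 and 10.41) did not pass, and Hsd17b10 differed by 0.38 without control replicate 2 (limma unadjusted p = 0.0357) and by 0.15 without YY1bKO replicate 3. Hsd11b1, which regenerates active glucocorticoid in fat, had means of 11.03 and 11.15 and overlapped, with control replicate 2 highest at 11.66, and differed by 0.44 without it (limma unadjusted p = 0.0219) and by -0.12 without control replicate 3.

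**Figure D4:**
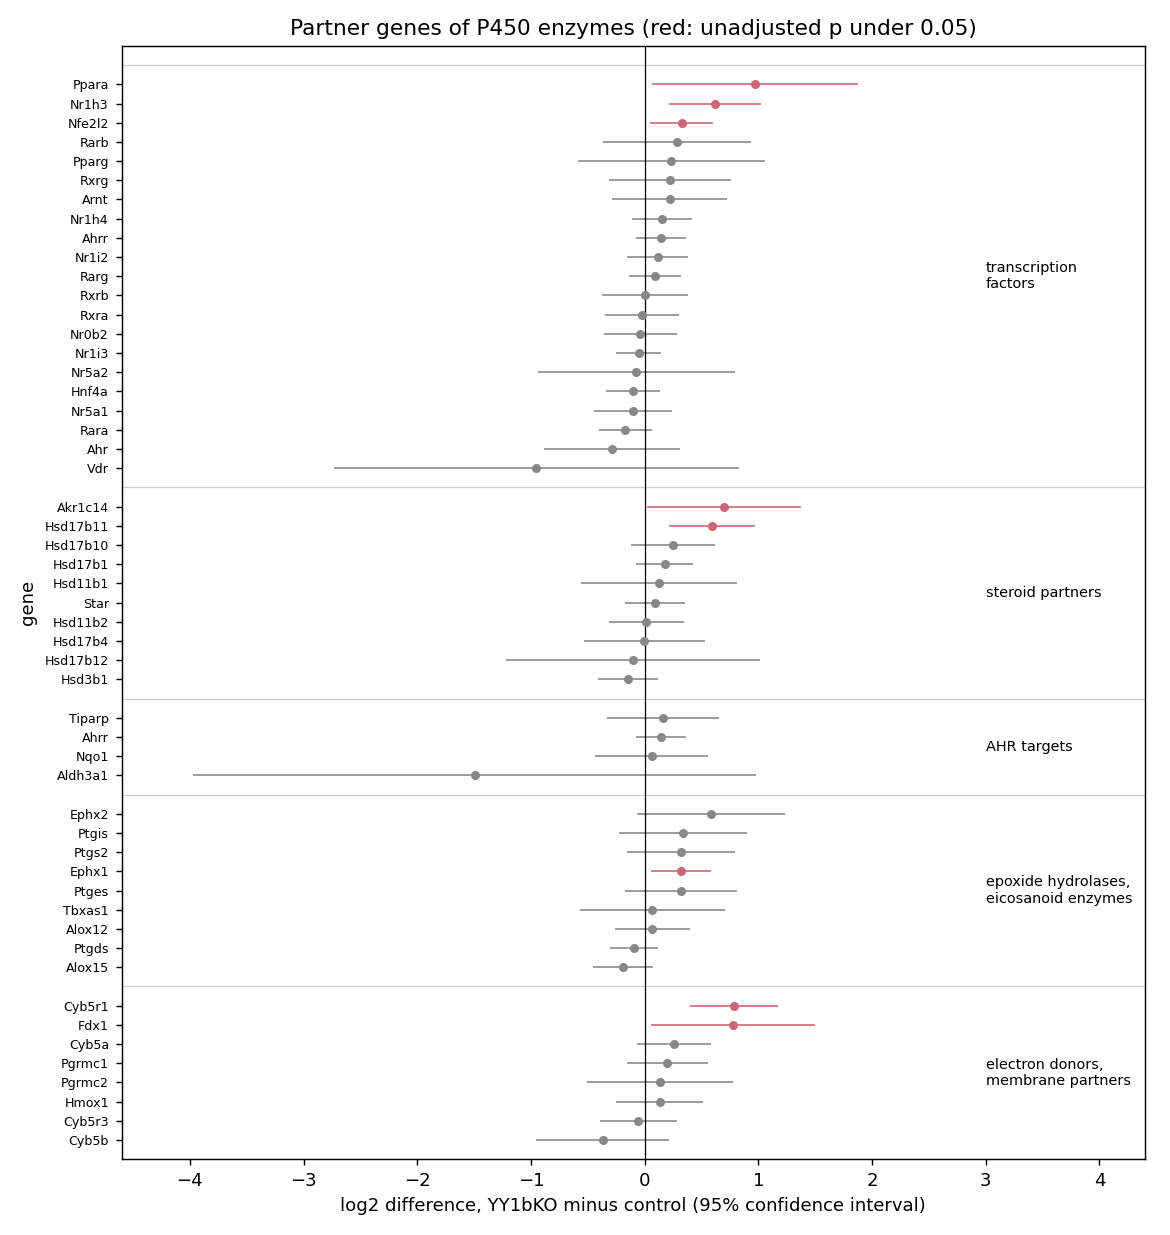
Log2 differences (YY1bKO minus control, x axis) with 95% confidence intervals from limma for each measured partner gene (y axis), grouped by list; red marks an unadjusted p under 0.05. The 8 red genes all lie to the right of 0, from 0.32 (Ephx1) to 0.97 (Ppara), and the widest interval is that of Aldh3a1.

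In the RefSeq gene order, runs of P450 genes with at most 3 other genes between neighbours held 44 of the members, in 12 runs, and 17 members stood alone. Cyp2d13, a transcribed pseudogene in RefSeq, was not placed, since only protein-coding genes were ordered. The 6 members higher at an unadjusted p under 0.05 came from 6 different places. Cyp2e1 and Cyp27a1 stood alone, and Cyp4b1, Cyp2d22, Cyp4f13 and Cyp2j9 were each the only member at that p in their run. The largest run, of Cyp2c genes, had 10 measured members, none higher at that p and 2 above the lower quartile.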

How the data were processed

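RNA from subcutaneous white fat was hybridised to 6 Affymetrix arrays (3 per group, assigned by the titles in the labels). The authors made the deposited intensity of each probe set with RMA, per the submitters' processing notes, which give no version. The range of the values shows a linear scale. RMA makes arrays alike in distribution and compresses low values. Array medians lay between 123.15 and 130.35, and the number of arrays limits the precision. Of 22690 probe sets, 20393 name 1 gene in the platform's annotation table. All 75 P450 probe sets matched RefSeq (GRCm38.p6) by gene identifier without a change of symbol.

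Values were taken as log2(value + 1), 1 probe set per gene (highest mean), and all 12394 genes were fitted with limma 3.58.1 in R 4.3.3 (lmFit, eBayes; 2-sided, Benjamini-Hochberg threshold 0.05, no filter). The fit was tested on simulated data. Members, role and partner lists were chosen with earlier results of these data known. The naming rule took all members with a mean above the lower quartile, partners with the 4 smallest p of each list, and Fdx1, Ahr, Ephx1 and Hsd11b1; Cyp2c23 and Cyp2d13 were given a role afterwards. Of the members' probe sets, 4 (_s_at) may read related transcripts. Alternatives were other scalings, pseudocounts, probe set rules and variance models, a dim filter, the replicate number as a block, and arrays left out.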

Additional observations from a re-analysis of the deposited data

How the results depend on the processing

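No P450 gene passed the adjusted threshold in any of the 14 alternatives, and the count of members higher at an unadjusted p under 0.05 was 5 to 8. Over all genes, the main fit called 1047 higher and 247 lower at an unadjusted p under 0.05 (6 and 0 members). Quantile normalization called 984 and 251 (7 and 0 members), and subtracting array medians 967 and 221 (6 and 0 members). Counts over all genes in the other alternatives are not given here. The count of lower members was 1 with the mean of all probe sets, 2 with intensity trend and robust eBayes, 1 without control replicate 2 and YY1bKO replicate 1 together, and 0 to 2 without single arrays. The replicate block gave 1 lower and 7 higher members. Same-numbered arrays deviated together with r = 0.61, 0.097 and 0.031. Arrays of different number ranged from r = -0.65 (control 1 with YY1bKO 2) to 0.60 (control 3 with YY1bKO 2). With 3 arrays a group these correlations cannot decide whether the numbers pair the arrays. The median difference was 0.095 with dim genes left out, which removes 39 members, and -0.055 to -0.0016 without single arrays. By the array median, 9 members were bright. Directions turned for Cyp1b1 (-0.041) and Cyp2b10 (-0.10) with the mean of all probe sets, and without both arrays named above for Cyp2f2 (0.046), Cyp4f18 (0.26), Cyp4f16 (-0.093) and Nqo1 (-0.058). Without single arrays, log2 differences that turned spanned -0.071 to 0.36 for Cyp1b1, -2.43 to 0.11 for Cyp2f2, -0.71 to 0.21 for Cyp4f18, -0.063 to 0.21 for Cyp4f16, -0.10 to 0.32 for Cyp2j6, -0.029 to 0.073 for Cyp2b10, -0.30 to 0.093 for Cyp2c70, -0.0502 to 0.11 for Cyp17a1, -0.019 to 0.33 for Tiparp, -0.078 to 0.29 for Nqo1 and -0.12 to 0.44 for Hsd11b1. With 3 arrays a group, small differences and values near background could not be resolved.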

Other observations

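4 probe sets annotated to several P450 genes were outside the comparison. Their control and YY1bKO means were 3.18 and 3.18 (Cyp3a41a and Cyp3a41b), 4.11 and 3.90 (Cyp2a4 and Cyp2a5), 4.12 and 4.32 (Cyp4a10 and Cyp4a31) and 5.85 and 6.17 (Cyp4f16 and Cyp4f37). Of these, the pair of Cyp2a genes had every YY1bKO array below every control, and the other 3 overlapped.

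Of 11 members with several probe sets, 5 had probe sets of opposite sign (Cyp1b1, Cyp2b10, Cyp24a1, Cyp2j5 and Cyp7a1). Cyp4v3 gave 0.26 and 0.50 and Cyp7b1 -0.50 and -0.74.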
